A study of Homo sapiens with 36 samples.

Results

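The regions described here are 1483 distal regions of the human genome that hold the consensus sequence of the transcription factor AP-1 and no core of a hypoxia response element (HRE) near their centre, out of 25350 regions found with tagged hypoxia-inducible factors (HIFs). They were chosen from the 15 peak lists of tagged lines. Overlapping peaks were merged, regions with peaks from at least 2 lists were kept, and the centre of a region was the median of its peak summits. A member had its centre more than 10 kb and at most 100 kb from the transcription start site (TSS) of a protein-coding gene. Its 201-bp window, 100 bp to each side of the centre, had to hold TGACTCA or its reverse complement TGAGTCA and neither ACGTG nor GCGTG on either strand. The other distal regions at these distances were 3124 with an HRE core and no AP-1 consensus, 753 with both and 4321 with neither, 9681 in all. The member closest to a TSS lay at 10002 bp and the farthest at 99766 bp, while the nearest regions just outside these limits lay at 9972 bp and 100108 bp. The HRE core nearest to a member's centre lay 99 bp from it, where its letters reached past the edge of the window.

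The data came from Cut&Run, in which an antibody tethers a nuclease to a chromatin protein and the released DNA fragments are sequenced, in 786-O cells. This clear cell renal carcinoma line carries no working VHL protein, which otherwise marks HIF-α for destruction, so all lines compared here hold stable endogenous HIF-2α in normal oxygen. Per the paper, a truncating mutation leaves the cells without functional HIF-1α of their own. The series had 36 samples from 6 lines with 3 replicates each, 18 made with anti-V5 antibody and 18 with IgG, and each anti-V5 library has 1 peak list that was called against the IgG library of its own line and replicate. The labels call the replicates biological.

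Untagged wild-type (WT) cells gave the background of the antibody. In the HIF-2α knock-in (KIN) line, which is 1 clone, the endogenous protein carries a V5 and a Halo tag. The other 4 lines express an additional protein with the same tags at its N-terminus from an L30 promoter: HIF-2α, HIF-1α, or 1 of 2 chimeras. HIF-2α/1α joins the N-terminal part of HIF-2α up to residue 365 to HIF-1α from residue 364, and HIF-1α/2α joins HIF-1α up to residue 363 to HIF-2α from residue 366. The N-terminal part holds the DNA-binding and dimerization domains and is called the DBD below, and the C-terminal part is the intrinsically disordered region (IDR). Endogenous untagged HIF-2α is also present in the 4 exogenous lines, but the antibody does not read it. Each exogenous protein is represented by 1 stable line. A difference by IDR or DBD thus cannot be told apart from other differences between lines, such as expression level. The paper reports that expression from the L30 promoter was uneven, also in stable lines.

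HIF-α proteins pair with HIF-1β and contact the HRE core, and much of their binding lies in chromatin that other factors keep open. AP-1 is a dimer of JUN, FOS, ATF or MAF family proteins that binds the TPA response element. AP-1 sites mark many distal enhancers of epithelial and carcinoma cells, and AP-1 can also be induced in hypoxia. A Cut&Run peak with an AP-1 sequence does not show that AP-1 was bound there, since no AP-1 subunit was profiled.

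Sequences of 11 members are shown here because the results below turn on them. All are read from the plus strand of hg38, with each AP-1 consensus and each HRE core on either strand in capitals. The first 4 are among the strongest members that were called in all 15 tagged lists and in no WT list, and in each of them an HRE core stands just outside the window on the side of lower coordinates.
QSOX1 site, chr1:180168188-180168256: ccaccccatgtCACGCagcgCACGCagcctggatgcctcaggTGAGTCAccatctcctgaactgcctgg
PFKFB3 site, chr10:6299423-6299510: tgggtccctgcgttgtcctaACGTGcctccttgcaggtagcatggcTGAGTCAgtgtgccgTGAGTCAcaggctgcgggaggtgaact
EPAS1 site, chr2:46233045-46233117: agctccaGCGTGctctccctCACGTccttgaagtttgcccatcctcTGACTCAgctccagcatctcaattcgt
PBOV1 site, chr6:138250952-138251053: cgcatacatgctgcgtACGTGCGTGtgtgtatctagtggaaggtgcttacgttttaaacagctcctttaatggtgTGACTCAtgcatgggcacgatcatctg

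The next pair are also among the strongest members, and their nearest HRE core lay 409 bp (CITED2) and 447 bp (MFSD1) from the centre, so that none is in the stretch shown.
CITED2 site, chr6:139457731-139457791: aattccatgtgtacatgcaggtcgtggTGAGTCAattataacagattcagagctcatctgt
MFSD1 site, chr3:158709844-158709904: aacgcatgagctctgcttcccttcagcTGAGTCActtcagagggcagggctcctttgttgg

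The following 3 are shown for the comparison of the IDRs. The EGLN3 site had the largest difference in fold among the members tested, and the IRX5 and ARSG sites were called in all 6 libraries with the HIF-1α IDR and in none of the 6 with the HIF-2α IDR.
EGLN3 site, chr14:34013429-34013702: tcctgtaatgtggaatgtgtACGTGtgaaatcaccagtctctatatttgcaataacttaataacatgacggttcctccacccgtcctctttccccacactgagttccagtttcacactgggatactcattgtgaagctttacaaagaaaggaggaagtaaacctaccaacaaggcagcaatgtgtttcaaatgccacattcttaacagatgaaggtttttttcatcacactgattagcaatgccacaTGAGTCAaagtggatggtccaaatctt
IRX5 site, chr16:55000828-55001035: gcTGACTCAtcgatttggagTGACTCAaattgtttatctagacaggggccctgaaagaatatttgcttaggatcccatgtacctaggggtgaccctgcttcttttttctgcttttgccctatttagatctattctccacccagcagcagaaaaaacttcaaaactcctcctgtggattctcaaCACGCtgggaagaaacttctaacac
ARSG site, chr17:68318583-68318643: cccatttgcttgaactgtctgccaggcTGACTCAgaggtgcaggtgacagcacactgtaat

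The last pair are the SNX29 site, called in all 3 WT lists, and the strongest member near JUN, which encodes an AP-1 subunit.
SNX29 site, chr16:12323268-12323328: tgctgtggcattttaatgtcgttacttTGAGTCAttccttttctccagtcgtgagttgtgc
JUN site, chr1:58823486-58823649: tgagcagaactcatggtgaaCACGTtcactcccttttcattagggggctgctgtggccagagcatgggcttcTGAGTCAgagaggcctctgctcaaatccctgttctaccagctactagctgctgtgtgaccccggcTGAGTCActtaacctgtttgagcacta

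The tagged lists held from 3984 to 20808 peaks. The WT lists held 392, 9508 and 743 peaks in replicates 1, 2 and 3, so WT replicate 2 stands apart from the other WT libraries and carries most WT calls below. Replicate 2 also had the longest list in each tagged line. The depth inferred from the lists was 0.241 to 0.593 fragments per base. A region without a peak in a library counts as not called, which does not show that the protein was absent from it. In bulk libraries, fewer bound cells and weaker binding per cell cannot be told apart.

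The name of these regions held for the window of the rule, but in a part of the members not for the sequence around it. Over the 203068 peaks of the 15 tagged lists, the AP-1 consensus was most frequent about 110 bp to the lower-coordinate side of the summit, at 3.04 motifs per 100 peaks in a 20-bp bin against 0.400 in the flanks beyond 320 bp, a ratio of 7.60. The HRE core was most frequent 90 bp to the same side, at 11.8 against 4.04, a ratio of 2.93. The median position of the excess lay between -94.1 and -86.0 bp for AP-1 and between -88.2 and -82.6 bp for the HRE core in the 15 lists, always on the lower-coordinate side. The coordinate frame was checked on annotated start codons, of which 99.8% of 97403 read ATG. The cause of this displacement was not tested, and the summits are used here as deposited.

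**Figure D1:**
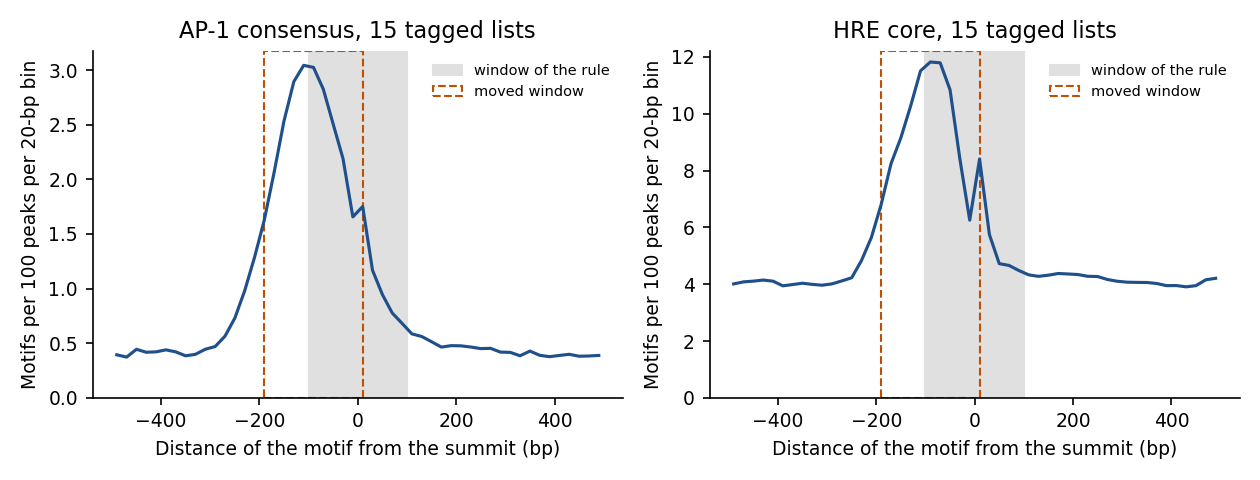
Motif frequency around the summits of the 203068 peaks in the 15 tagged lists, for the AP-1 consensus (left) and the HRE core (right). The x axis is the distance of the motif from the deposited summit in bp, with lower coordinates to the left, and the y axis is motifs per 100 peaks in each 20-bp bin; the grey band is the 201-bp window of the rule and the dashed frame the same window moved by 90 bp. Both curves peak left of the summit, at 3.04 for AP-1 and 11.8 for the HRE core.

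The members follow the same displacement. Their own AP-1 consensus lay on the lower-coordinate side of the centre in 1101 of 1483 members (74.2%). An HRE core lay 101 to 300 bp to the lower side in 536 members (36.1%), against 290 (19.6%) at the same distances to the higher side, which serves as the background of so short a motif. In the 63 members called in all 15 tagged lists these counts were 47 (74.6%) and 13 (20.6%), and in the 353 members called in only 2 lists 24.6% and 18.7%. The distal regions with neither motif had an HRE core to the lower side in 34.1% and to the higher side in 21.7%, close to all members. An HRE core stood somewhere within the merged peak bounds in 59 of the 63 (93.7%), against 719 (48.5%) of all members, beside longer bounds in the 63 (median 1447 bp against 562 bp).

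When the window was moved by 90 bp to the lower side, a choice made after seeing the data, 912 members (61.5%) kept an AP-1 consensus without an HRE core. Another 327 (22.1%) held both motifs there, 75 (5.06%) held an HRE core alone and 169 (11.4%) held neither. The members with an HRE core in the moved window were thus 402 (27.1%), where 1078 (24.95%) of the distal regions with neither motif had one there. These 402 members were called in a median of 7 tagged lists and 47 of them (11.7%) in all 15. The 1081 members without one had a median of 4 lists, with 16 (1.48%) called in all 15. Of the 912 with AP-1 alone, 11 (1.21%) were called in all 15 lists. Of the 63 members called in all 15 lists, 47 (74.6%) had an HRE core in the moved window. This contrast was not particular to the members. Among all distal regions, 11.54% with an HRE core alone in the moved window and 12.15% with both motifs were called in all 15 lists. With AP-1 alone there the share was 2.21%, and with neither motif 2.83%.

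**Figure D2:**
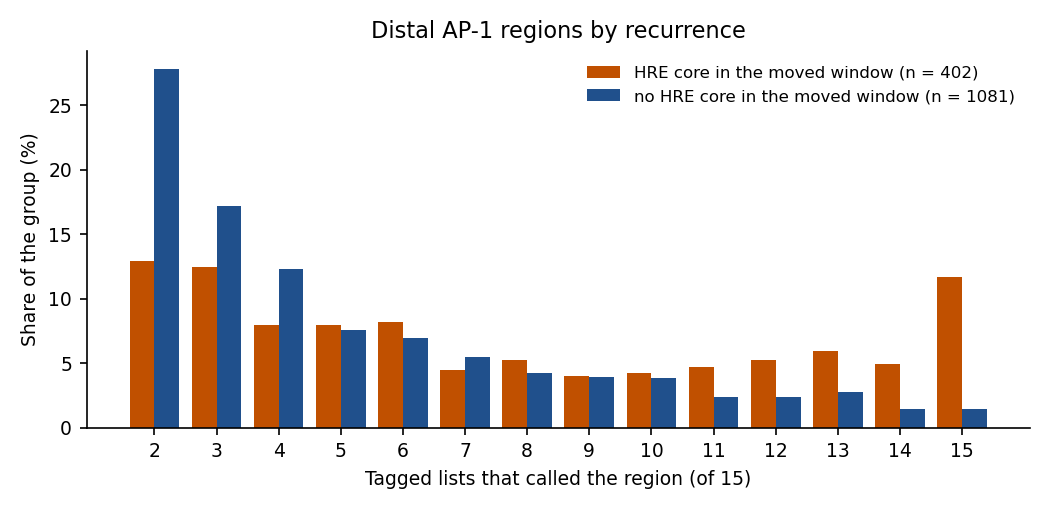
Members by the number of tagged lists that called them, as bars from 0. The x axis is the number of tagged lists out of 15, the y axis the percent of the group, and the colours separate the 402 members with an HRE core in the window moved by 90 bp from the 1081 without one. At 15 lists the bars stand at 11.7% and 1.48%, and at 2 lists at 12.9% and 27.8%.

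All 15 tagged libraries called a smaller share of the members than of the distal regions with an HRE core and no AP-1 consensus, while the 3 WT libraries called slightly more of the members. In WT, 0.472%, 15.3% and 3.64% of members were called in replicates 1, 2 and 3. In KIN the shares were 8.36%, 28.5% and 21.6%. With HIF-2α they were 18.3%, 61.3% and 16.0%, so that replicate 2 lay far above the other two.
With HIF-2α/1α they were 48.1%, 63.3% and 36.1%. With HIF-1α they were 45.6%, 61.3% and 50.8%, and with HIF-1α/2α 40.1%, 50.6% and 36.7%. The means were thus 6.47% ± 7.81 in WT, 19.5% ± 10.2 in KIN, 31.9% ± 25.5 with HIF-2α, 49.1% ± 13.6 with HIF-2α/1α, 52.6% ± 8.00 with HIF-1α and 42.5% ± 7.22 with HIF-1α/2α (SD, n = 3 each). WT overlapped with KIN only through WT replicate 2, and with none of the exogenous lines. Members were kept for calls in at least 2 tagged lists, and WT lists had no part in that choice. The rule thus favours higher shares in the tagged lines, and these shares are descriptions.

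**Figure D3:**
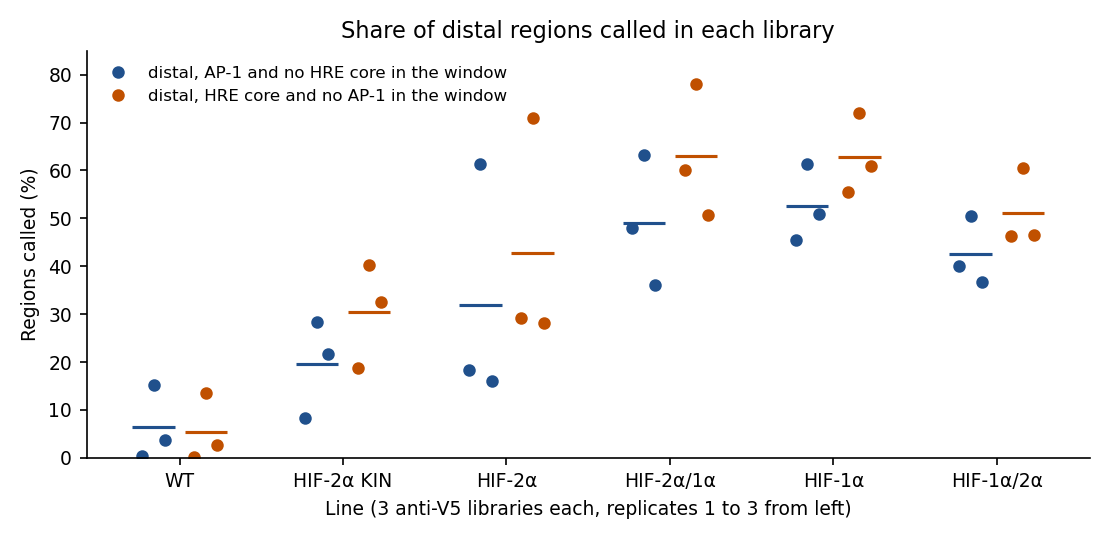
Share of regions called in each anti-V5 library. The x axis gives the 6 lines with 3 libraries each, replicates 1 to 3 from left, and the y axis the percent of regions called; blue points are the 1483 members, orange points the 3124 distal regions with an HRE core and no AP-1 consensus, and lines are means. The blue points lie below the orange points of the same library in all 15 tagged libraries and above them in the 3 WT libraries.

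The gap between both classes, in percentage points of members minus regions with an HRE core alone, was -10.4, -11.7 and -10.9 in KIN and -10.8, -9.70 and -12.2 with HIF-2α. It was -12.0, -14.9 and -14.7 with HIF-2α/1α, -10.0, -10.7 and -10.2 with HIF-1α, and -6.36, -10.0 and -9.86 with HIF-1α/2α. In WT it was 0.28, 1.80 and 0.888, and no WT library overlapped with the tagged ones. The mean gap differed by -12.0 points between the 15 tagged and the 3 WT libraries (-11.0 ± 2.05 against 0.989 ± 0.764, SD). Both classes were kept for their calls in at least 2 tagged lists, and WT lists had no part in that choice, so this difference is a description and carries no test. Without WT replicate 2 it was -11.6 points. The lists of WT replicates 1 and 3 are far shorter than the tagged lists, while WT replicate 2, with 9508 peaks, lies within their range. The gap was therefore also taken as log2 odds, where the difference was -1.41. With the moved window the difference was -15.9 points.
Distal regions with neither motif were called at shares close to those of the members, with 9.07%, 31.3% and 21.0% in KIN, 17.3%, 60.7% and 15.3% with HIF-2α, 47.3%, 62.4% and 34.5% with HIF-2α/1α, 41.4%, 59.3% and 47.5% with HIF-1α, and 36.5%, 50.2% and 34.4% with HIF-1α/2α. In WT they were called at 0.185%, 14.0% and 2.87%. Distal regions with both motifs had shares near those with an HRE core alone, such as 17.5%, 39.0% and 32.1% in KIN against 18.8%, 40.2% and 32.5%.

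Within the tagged lines, the gap was the only class comparison that separated the IDRs before adjustment. Libraries with the HIF-2α IDR averaged -9.83 ± 1.93 (SD, n = 6) and those carrying the HIF-1α IDR -12.1 ± 2.21. They differed by 2.25 points (two-sided exact permutation test over libraries, p = 0.03, and 0.12 after adjustment over the 16 tests of this family). By DBD the difference was -2.86 points, with -12.4 ± 2.06 for the HIF-2α DBD and -9.52 ± 1.58 for the HIF-1α DBD (exact permutation p = 0.015, adjusted p = 0.08). Neither passed the adjustment, and with all lists cut to the same length they were 0.430 and -1.39 points (exact permutation p = 0.595 and 0.115). Both classes were kept for calls in these same tagged lists, and a longer list brings in more regions. The p-values of the gap and of the plain share below are thus not independent of that choice. The IDR difference with the HIF-2α DBD exceeded that with the HIF-1α DBD by 1.40 points (exact permutation p = 0.54).

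The plain share of members called was lower with the HIF-2α IDR (37.2% ± 17.8) than with the HIF-1α IDR (50.9% ± 10.2), by 13.7 points, but the libraries overlapped widely (exact permutation p = 0.15). With lists of equal length the sign turned, to 1.33 points more with the HIF-2α IDR (exact permutation p = 0.01), so the difference in the plain share moved with list length. By DBD the difference was -7.02 points (exact permutation p = 0.425). KIN and the exogenous lines had nearly the same gap, -11.0 ± 0.668 and -10.9 ± 2.299, a difference of -0.0796 points.

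The share of each list's own distal peaks that had an AP-1 consensus and no HRE core near their own summit does not depend on merging lists. It was 9.55%, 10.0% and 11.6% in KIN, and ranged from 10.3% to 14.1% with a mean of 12.6% ± 1.14 in the 12 exogenous libraries. The difference of -2.23 points had an exact permutation p of 0.00879 and an adjusted p of 0.0703, and with lists of equal length it was -0.244 (exact permutation p = 0.732). In WT the share was 6.15%, 9.04% and 19.1%, from 195, 4313 and 366 distal peaks, which surrounds the tagged values. IDR and DBD differed by -0.774 and -0.901 points (exact permutation p = 0.265 and 0.165).

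Members were less recurrent than regions with an HRE core alone. Of the members, 63 (4.25%) were called in all 15 tagged lists, where 6.79% of all 25350 regions and 11.7% of the distal regions with an HRE core alone were. Of the 63, 47 (3.17% of members) were called in no WT list, against 4.74% of all regions. In KIN, 222 members (15.0%) were called in at least 2 of 3 lists, against 19.9% of all regions and 28.2% of the distal regions with an HRE core alone. Distal regions with neither motif resembled the members, with 3.91% in all 15 lists and 15.8% in at least 2 KIN lists. The rule asks for calls in tagged lists, so these shares are descriptions and carry no test.

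WT calls were more frequent among members than among all regions, and more frequent still among distal regions with both motifs. At least 1 WT list called 237 members (16.0%), against 12.8% of all regions, 13.9% of distal regions with an HRE core alone, 14.6% of those with neither motif and 17.8% of those with both. At least 2 WT lists called 47 members (3.17%), against 1.87% of all regions, 2.43% of those with an HRE core alone, 2.31% of those with neither and 3.45% of those with both. The calls came from 7, 227 and 54 members in replicates 1, 2 and 3. Among the peaks of WT replicate 2 the AP-1 consensus was 4.81 times as frequent at its maximum as in the flanks, while the HRE core reached 1.24 times.

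In all 3 WT lists, 4 members were called. The SNX29 site (chr16:12322511-12323784, an intron of SNX29) had deposited folds of 12.9, 49.0 and 23.7 in WT and 5.78, 20.4 and 12.2 in KIN, and was called in only 5 of the 12 exogenous libraries, at 4.58 to 11.3. Its WT folds were thus above those of any exogenous library. The ORM1 site, in an intron of COL27A1 that encodes a collagen chain, had 4.85, 17.2 and 9.20 in WT and was called in 14 tagged libraries at 5.82 to 41.9. The RHBDF2 site, near the gene of an inactive rhomboid protein, had 4.38, 20.7 and 8.05 in WT and 2.33 to 18.3 in 14 tagged libraries. The other was an ECE1 site (chr1:21324152-21325513), named after its values were seen, which was called in 14 tagged libraries at a median fold of 5.81.

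Members called in more lists had higher folds. Their merged bounds were also wider, which merging more lists brings about by itself. Deposited fold is the fragment pileup at the summit plus 1, over the local background plus 1. Members called in 2 lists had a median fold of 6.41 and a median merged width of 401 bp, those in 3 to 9 lists 6.61 and 550.5 bp, those in 10 to 14 lists 8.69 and 959 bp, and those in all 15 lists 20.1 and 1447 bp. Members called in all 15 lists had folds near those of the 366 regions with an HRE core alone that were called in all 15. In KIN their median folds were 9.68, 19.8 and 12.6 in replicates 1 to 3, against 9.58, 18.8 and 13.7. The difference of both medians on the log2 scale averaged 0.08 ± 0.10 for the HIF-2α IDR and -0.04 ± 0.16 for the HIF-1α IDR (exact permutation p = 0.18). By DBD the difference was 0.04 (exact permutation p = 0.635), and between KIN and the exogenous lines -0.03 (exact permutation p = 0.752).

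Among the 8 strongest members called in all tagged and no WT lists were sites near EPAS1, PFKFB3 and CITED2. Of these genes only PFKFB3 is on the list of HIF targets used below. No share over other regions was taken for this grouping. EPAS1 encodes HIF-2α itself, and its site (chr2:46231812-46233632, intergenic, 63.4 kb from the TSS) had folds of 42.8, 72.4 and 38.6 in KIN, 55.3, 85.3 and 37.4 with HIF-2α, and 64.8, 57.3 and 35.9 with HIF-2α/1α. It had 22.9, 80.2 and 42.0 with HIF-1α and 42.6, 67.0 and 30.7 with HIF-1α/2α. All 5 tagged lines overlapped at this site.
PFKFB3 encodes an enzyme that raises the main activator of glycolysis, and its site (chr10:6297107-6302233, in a lncRNA gene 75.4 kb away) had 36.6, 85.2 and 54.2 in KIN, 50.2, 97.7 and 14.8 with HIF-2α, and 58.7, 146 and 22.2 with HIF-2α/1α. With HIF-1α it had 34.6, 45.5 and 14.3 and with HIF-1α/2α 35.3, 61.2 and 23.9, again overlapping in all lines. CITED2, whose product limits HIF by competing for the coactivator CBP, is described with the IDR below.

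The remaining 5 were near QSOX1, an oxidase that forms disulfide bonds in secreted proteins, PBOV1, SPTBN1, which encodes a spectrin, MFSD1, a lysosomal transporter, and RNF220, a ubiquitin ligase. The QSOX1 site (chr1:180167285-180169413, an intron of QSOX1) had 12.6, 57.6 and 22.5 in KIN and ranged from 17.5 to 103 in the exogenous libraries. The PBOV1 site (chr6:138249638-138251401, an intron of ARFGEF3) had 15.7, 47.7 and 42.2 in KIN and 13.1 to 86.4 in the others. At the MFSD1 site (chr3:158709250-158711191, an intron of RARRES1) KIN had 7.46, 20.1 and 8.71, and 11 of the 12 exogenous libraries lay above all of these, from 27.5 to 92.4, with HIF-2α replicate 1 at 15.5.
In these 8 the nearest HRE core lay 99 to 167 bp to the lower side of the centre in 6, and more than 400 bp away at the MFSD1 and CITED2 sites. The AP-1 and HRE core centres were 23 bp apart at the QSOX1 site, 27 bp at the EPAS1 site, 42 bp at the PFKFB3 site and 56 bp at the PBOV1 site, as their sequences above show.

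The 11 members called in all 15 lists that also had an AP-1 consensus and no HRE core in the moved window were listed after their values were seen. They included sites near MFSD1, CITED2, PAG1, EVX1, CTBP2, TMEM63B, SPTBN5, ESYT2, HIPK2 and KCNMA1, with median folds from 7.81 (KCNMA1) to 40.1 (MFSD1), and only the HIPK2 site was called in a WT list.

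Whether the fold differed by IDR was tested with limma on log2 deposited fold over the 2720 regions called in all 12 exogenous libraries. Of these regions, 122 were members. The other members lack a call, and so a value, in at least 1 of the 12 and were not tested. Of the 122, 2 passed (1.64%), both higher with the HIF-2α IDR and none with the HIF-1α IDR, where 1.69% and 0.551% of the 2720 regions passed in these directions. At an unadjusted p under 0.05 there were 8 members (6.56%), against 16.8% of all regions. The median member differed by 0.17 on the log2 scale, toward the HIF-2α IDR, and the median of all 2720 regions by 0.06. Without centring each library on its median these were -0.12 and -0.24, so the direction of the typical member depends on that scaling.

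EGLN3 encodes a HIF prolyl hydroxylase that is itself a HIF target. Its site in an intron of the gene (chr14:34012448-34014369, 62.5 kb from the TSS) had folds of 48.2, 65.9 and 23.4 with HIF-2α and 38.6, 58.0 and 35.2 with HIF-1α/2α. It had 17.3, 14.2 and 11.3 with HIF-2α/1α, 7.19, 14.4 and 6.94 with HIF-1α, and 6.53, 11.0 and 7.96 in KIN, and no call in WT. All 6 exogenous libraries with the HIF-2α IDR lay above all 6 with the HIF-1α IDR. KIN also carries the HIF-2α IDR, but lay within the range of the HIF-1α IDR in replicates 2 and 3 and below it in replicate 1. The difference was 2.21 ± 0.34 on the log2 scale (SE, limma adjusted p = 3.548e-06), and it passed without any single library. By DBD it was 0.29 ± 0.34 (limma adjusted p = 0.747). This window holds an AP-1 consensus 77 bp to the higher side of the centre, and an HRE core stands 151 bp to the lower side.

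At the CITED2 site (chr6:139456311-139458456, in a lncRNA gene 83.2 kb from the TSS) the folds were 53.5, 153 and 38.4 with HIF-2α and 30.9, 94.5 and 46.4 with HIF-1α/2α. They were 32.2, 33.6 and 30.9 with HIF-2α/1α, 14.5, 25.4 and 11.6 with HIF-1α, and 6.43, 59.6 and 27.7 in KIN. HIF-1α was lowest of the exogenous lines, and HIF-2α/1α overlapped with HIF-1α/2α. The difference by IDR was 1.67 ± 0.34 (SE, limma adjusted p = 0.001024), and it passed without any single library, but not without centring (adjusted p = 0.133). With pileup over background in place of the deposited fold, neither the EGLN3 nor the CITED2 site passed (adjusted p = 0.188 for both).

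The third lowest p belonged to a site in an intron of CMIP, which encodes a signalling adaptor, and just missed the threshold with 1.13 ± 0.34 (limma adjusted p = 0.05015). It passed without HIF-2α replicate 1 (limma adjusted p = 0.0384), and without centring the limma adjusted p was 0.353. The site had 23.8, 79.0 and 58.5 with HIF-2α and 21.7, 49.2 and 28.3 with HIF-1α/2α, against 23.2, 18.5 and 14.4 with HIF-2α/1α and 20.9, 26.6 and 30.1 with HIF-1α, so that the IDRs overlapped. It was also called in WT replicates 2 and 3, at 6.49 and 9.07. In the other direction, the 3 members with the lowest p lay near TLN2, a talin that links integrins to actin, CELSR1, a cadherin of planar cell polarity, and ATP10B, a lipid flippase. Their differences were -0.66, -0.64 and -0.50, with limma adjusted p from 0.304 to 0.483.

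**Figure D4:**
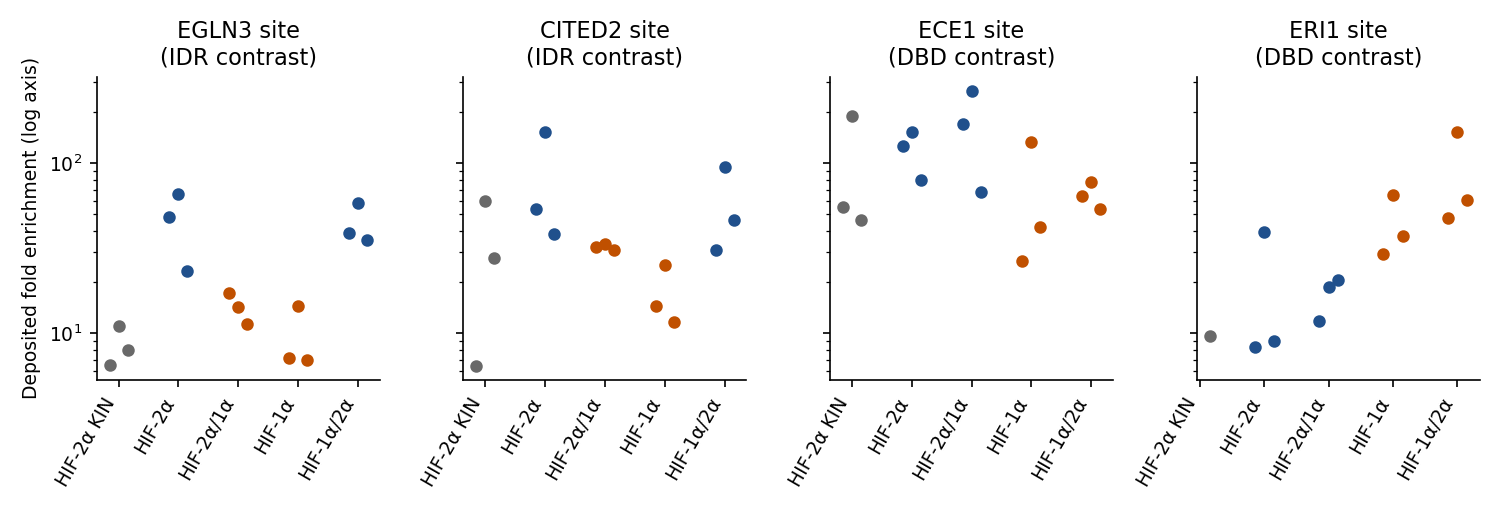
Deposited fold enrichment at the 4 members that passed limma, on a log axis, with 1 point per library and lines on the x axis; a missing point is a library without a call. In the left pair of panels blue marks the HIF-2α IDR and orange the HIF-1α IDR, in the right pair blue marks the HIF-2α DBD and orange the HIF-1α DBD, and grey is KIN. At the EGLN3 site the blue points lie above all orange ones (23.4 to 65.9 against 6.94 to 17.3), and at the ERI1 site the orange points reach 153 while the blue ones stay at 39.7 or less.

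By DBD, 2 of the 122 members passed, 1 in each direction, where 0.919% of all 2720 regions passed toward the HIF-2α DBD and 2.1% toward the HIF-1α DBD. At an unadjusted p under 0.05 there were 17 members (13.9%), against 16.4% of all regions. ERI1 encodes an exonuclease that trims histone mRNA and small RNAs. The site in an intron of ERI1 (chr8:9052900-9054240, 37.3 kb from the TSS) had folds of 29.1, 65.1 and 37.5 with HIF-1α and 47.5, 153 and 60.8 with HIF-1α/2α. It had 8.29, 39.7 and 9.03 with HIF-2α, 11.8, 18.8 and 20.7 with HIF-2α/1α, and a call in KIN replicate 3 alone, at 9.59. Only HIF-2α replicate 2 reached into the range of the HIF-1α DBD. The difference was -1.88 ± 0.34 on the log2 scale (SE, limma adjusted p = 0.0001132) and passed without any single library, but not with pileup over background (adjusted p = 0.127).

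ECE1 encodes the enzyme that activates endothelins. The site in an intron of ECE1 (chr1:21237134-21240105, 40.8 kb from the TSS) had 126, 153 and 80.1 with HIF-2α and 169, 268 and 67.4 with HIF-2α/1α, against 26.7, 133 and 42.3 with HIF-1α and 64.0, 77.4 and 54.0 with HIF-1α/2α. In KIN it had 55.5, 191 and 46.3, and in WT replicate 2 it was called at 11.8. The DBDs overlapped here. The difference of 1.13 ± 0.34 passed narrowly (SE, limma adjusted p = 0.04756), and in 9 of the 12 fits that left out 1 library it did not.
The next members by p were near TCEA3, a transcription elongation factor, and CDC42EP3, an effector of the GTPase CDC42, toward the HIF-2α DBD (1.04 and 0.97, limma adjusted p = 0.0746 and 0.104). Toward the HIF-1α DBD they were near GALNT2, which starts O-linked glycosylation, and AGPAT4, an acyltransferase (-0.84 and -0.77, limma adjusted p = 0.166 and 0.242). None of the 122 members passed the interaction of IDR and DBD in limma, with 7 members and 140 of all 2720 regions at an unadjusted p under 0.05.

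Members that lack a value in some libraries were compared by their calls. By IDR, 9 members had an unadjusted Fisher's exact p under 0.05 over 6 against 6 libraries, all with more calls with the HIF-1α IDR (0.607% of members), where 1.32% of all regions did so. In the direction of the HIF-2α IDR no member passed, where 0.0947% of all regions did. By DBD, 5 members passed, 1 toward the HIF-2α DBD, against 0.075% of all regions, and 4 toward the HIF-1α DBD, against 0.489%. After Benjamini-Hochberg adjustment of Fisher's exact p over the 25350 regions no region passed, and the smallest adjusted p was 1.

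Of the 9 members, 4 were called in all 6 libraries with the HIF-1α IDR and in none with the HIF-2α IDR, KIN and WT aside. They lay near IRX5, a homeobox factor, ARSG, a lysosomal sulfatase, BCL11B, a zinc finger factor, and FHDC1, a formin-like protein (Fisher's exact p = 0.002165 each, adjusted p = 1). The IRX5, ARSG and BCL11B sites had no other tagged call, so they met the rule through the HIF-1α IDR lists alone. Their p is therefore no independent support. The FHDC1 site was called in 8 tagged libraries, KIN among them, and KIN carries the HIF-2α IDR. The IRX5 site (chr16:55000594-55001048, intergenic) had folds of 11.2, 14.3 and 9.07 with HIF-2α/1α and 7.30, 10.8 and 6.46 with HIF-1α. The ARSG site (chr17:68318341-68318838, an intron of ARSG) had 6.13, 7.74 and 13.8 and then 6.68, 16.2 and 9.45. Neither had a call in KIN or WT. The lists with the HIF-1α IDR held 12371 to 20808 peaks and those with the HIF-2α IDR 5906 to 20651. With lists of equal length 7 members had an unadjusted Fisher's exact p under 0.05 by IDR, in place of 9. The other 5 lay near MCFD2, FAM120B, NDUFB11, SETD3 and NFAT5. Among them the FAM120B and NDUFB11 sites were also called in KIN, and the SETD3 and NFAT5 sites had tagged calls with the HIF-1α IDR alone.
Toward the HIF-2α IDR the members with the lowest p were near CTLA4, called in 5 and 1 of 6 libraries (Fisher's exact p = 0.0801), and another site in an intron of EGLN3 (chr14:33986449-33987611), called in 6 and 3 (Fisher's exact p = 0.182). The 5 by DBD were near PLEKHA6, toward the HIF-2α DBD, and CLDN23, ASB17, LPP and PTH1R, toward the HIF-1α DBD, each with Fisher's exact p = 0.01515. The ASB17 site had tagged calls with the HIF-1α DBD alone. The PLEKHA6, CLDN23 and PTH1R sites were also called in KIN, which carries the HIF-2α DBD. The LPP site was also called in 2 WT libraries.

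The nearest protein-coding genes of the members numbered 1198, of which 989 had 1 member, 155 had 2 and 54 had 3 or more. ABTB3 and KCNMA1, which encodes a calcium-activated potassium channel, had 7 members each, out of 18 and 12 distal regions of any class. PRKAG2, a subunit of the energy sensor AMPK, and USP12, a deubiquitinase, had 5 each, out of 16 and 7. The nearest gene is a label of position, and no expression was measured in these libraries.

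Genes of a list of 45 known HIF targets were nearest to 25 members (1.69%), against 1.54% of all distal regions. EGLN3 and PFKFB3 had 4 members each, and CA12, DDIT4, EDN1 and PLIN2 had 2 each. Of the 25, 6 were called in all 15 tagged lists: 2 near EGLN3, 2 near PFKFB3, and 1 each near NDRG1 and BNIP3L, a mitophagy receptor. All 6 had an HRE core in the moved window. The strongest of the 25 lay in an intron of EGLN3 (chr14:34034255-34037430, 84.8 kb from the TSS), with folds of 17.7, 129 and 67.1 in KIN, 44.05, 113 and 29.3 with HIF-2α, 52.7, 55.0 and 31.9 with HIF-2α/1α, 28.7, 79.8 and 19.0 with HIF-1α, and 57.6, 57.2 and 29.9 with HIF-1α/2α. The lines overlapped at this site, unlike at the EGLN3 site where the IDRs separated, and its difference by IDR was 0.60 ± 0.34 (SE, limma adjusted p = 0.369).

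Genes of 19 AP-1 subunits were nearest to 8 members (0.539%), against 0.310% of all distal regions: 4 near JUN, 2 near JUND and 1 each near ATF3 and FOSL2. None was called in all 15 lists. The strongest lay in a lncRNA gene 39.7 kb from JUN (chr1:58823130-58824132) and had no call in KIN or WT. With HIF-2α it was called in replicate 2 alone, at 5.28, and with HIF-2α/1α it had 5.24, 13.0 and 3.93, with HIF-1α 10.7, 25.6 and 16.8, and with HIF-1α/2α 10.5, 20.9 and 8.11. HIF-2α was thus the 1 exogenous line that lacked calls here, in replicates 1 and 3. The lists of these replicates, with 6590 and 5906 peaks, were the shortest of the exogenous lines. The FOSL2 site (chr2:28296176-28296679, in an intron of BABAM2) was called in 10 tagged libraries at 5.20 to 20.0 and in WT replicate 2 at 9.62.

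Genes known as AP-1 targets, matrix, protease and cytokine genes among them, were nearest to 9 members (0.607%), against 0.826% of all distal regions. The list held 40 genes. The 2 strongest lay near EGFR, the receptor of epidermal growth factor, called in 6 tagged libraries at 5.47 to 11.8, and near DUSP5, a phosphatase of ERK, called in 14. The DUSP5 site (chr10:110414138-110415293) had its highest fold in WT replicate 2, at 51.6, with 9.03 in WT replicate 3 and 4.54 to 26.3 in tagged libraries.

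Adhesion and cytoskeleton genes, a list of 40, were nearest to 32 members (2.16%), against 1.54% of all distal regions, with 3 each near MYH9, a non-muscle myosin, NEDD9, a scaffold of focal adhesions, and TNS3, a tensin. Members called in all 15 lists included the strongest near MYH9 and NEDD9 and, named after its values were seen, 1 near TNS4. The MYH9 site (chr22:36328370-36333986, an intron of MYH9) had 7.44, 10.9 and 11.3 in KIN, below 14.0 to 62.0 in the 12 exogenous libraries, and 8.27 in WT replicate 2. The NEDD9 site (chr6:11206560-11207858) had 6.84, 23.6 and 14.7 in KIN and 4.66 to 111 in the exogenous libraries.

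YAP and TEAD target genes were nearest to 9 members (0.607%, against 0.888%), with 3 near TEAD1, which encodes a TEAD factor. The 2 strongest lay near LIMD1, in an exon outside the coding sequence or a UTR of LARS2, called in 14 tagged libraries at 5.32 to 23.0, and in an intron of TEAD1, called in 11 at 6.74 to 20.7. Kidney lineage factors were nearest to 5 members (0.337%, against 0.310%), among them sites near GATA3, SIM1, TFCP2L1 and WT1. The TFCP2L1 site was called in 2 libraries, at 10.8 and 17.3. These shares differ by few regions, and no test was run on them.

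In sequence and position the members resembled the other distal regions without an HRE core. Their median GC content in the window was 48.3% (quartiles 42.8% and 53.7%), against 51.5% for distal regions with an HRE core alone and 47.8% for those with neither. The members lay a median of 32.2 kb from a TSS, against 30.9 kb and 32.3 kb. In introns of protein-coding genes lay 754 members (50.8%), in intergenic sequence 513 (34.6%), in lncRNA genes 182 (12.3%), in UTRs or noncoding exons 23 (1.55%) and in coding exons 11 (0.742%). Of the distal regions with an HRE core alone, 49.0% lay in introns and 33.2% in intergenic sequence.

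AP-1 sequences were found in 23.1% of the 9681 distal regions and in 17.2% of all 25350 regions, in windows of the same length. More than 1 AP-1 consensus stood in 119 members (8.02%), among them the PFKFB3, IRX5 and ARSG sites. Over the 1605 AP-1 sequences in members, read in the orientation TGAGTCA with 1 base on each side, CTGAGTCAT was the most frequent with 12.0%, against 6.87% of 462326 matches in the genome. CTGAGTCAC followed with 11.7% against 6.29%. With T before and A after, TTGAGTCAA made up 0.810% of the members' matches, against 5.44% in the genome, and GTGAGTCAA 2.18% against 7.92%.

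Other motifs were searched on both strands in the same window, and shares are given for members, for distal regions with an HRE core alone and for all regions, promoters included. The SP letters GGGCGG stood in 5.39% of members, 9.99% of distal regions with an HRE core alone and 22.2% of all regions, and in none of the 63 members called in all 15 lists. The TEAD letters GGAATG stood in 18.2%, 15.4% and 15.0%, and the RUNX letters TGTGGT in 21.9%, 20.6% and 17.6%. The ETS letters CAGGAAG stood in 11.2%, 11.2% and 10.4%, and the E-box letters CANNTG, which can overlap an HRE core, in 71.3%, 69.4% and 62.5%. Distal regions with neither AP-1 nor HRE core held the TEAD, RUNX and ETS letters more often than the members, in 20.0%, 25.0% and 12.4%. They held the SP letters in 7.15% and the E-box letters in 66.05%. More TEAD or RUNX letters were thus not particular to the members. The CRE letters TGACGTCA stood in 0.337% of members and 0.678% of all regions. Short letters match often by composition, and a match is a description of the window.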

How the data were processed

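Anti-V5 and IgG Cut&Run libraries of 6 lines with 3 replicates each were deposited as 18 MACS2 peak lists, 1 per anti-V5 library against its own IgG library. Per the study's methods and processing notes, Bowtie2 2.3.4.1 aligned the reads locally to hg38, keeping fragment sizes from 10 to 700 bp, with SAMtools 1.8, bedtools 2.28.0 and deepTools 3.5.1 also listed. Peaks were called with MACS2 (version not given in the sources used here) on paired fragments at a q-value of 0.01, joining stretches up to 400 bp apart and keeping duplicates. Replicates were not pooled, and blacklisted regions were removed. The deposited columns used are the peak and summit positions, the fold (a ratio of pileup plus 1 over local background plus 1) and −log10 p and −log10 q. No per-sample column was left unused (0), and IgG libraries enter only through the calls. The lists state no read totals, so depth was solved from deposited fold and −log10 p with a Poisson model, in which whole fragments fitted 99.99% to 100% of the peaks of a list.

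Peaks sharing at least 1 bp were merged (chromosomes 1 to 22, X and Y). TSS and gene annotation came from GENCODE release 44 on hg38, and whole motifs had to lie within 100 bp of the centre. A call means that the library's own list had a peak overlapping the region. The members, gene lists and tests were chosen with earlier results of these data known. Two-sided exact permutation tests exchanged library labels, for the IDR within each DBD and for the DBD within each IDR (400 relabellings each), with Benjamini-Hochberg adjustment over 16 tests. The p-values measure the spread between these libraries. Fisher's exact test (6 against 6 libraries) was adjusted over all 25350 regions. limma 3.58.1 in R 4.3.3 was fitted to log2 deposited fold, centred on each library's median, over the 2720 regions called in all 12 exogenous libraries, with Benjamini-Hochberg adjustment over them and a threshold of 0.05. The tests were tested on simulated data. Python 3.11.15, NumPy 2.4.6, pandas 2.3.3, SciPy 1.17.1, pysam 0.24.0 and matplotlib 3.10.9 were used.

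Sites were named by their nearest protein-coding gene. Named were the 8 strongest members called in all tagged and no WT lists, the 3 lowest limma p per contrast and direction, the 2 lowest Fisher p by IDR and direction, the 3 strongest called in all WT lists, and the 2 strongest per gene list. Some sites that meet these rules are not reported here. Alternatives were lists of equal length, −log10 q of at least 5, pileups rescaled to the lowest depth, a motif window of 50 bp, 1 TSS per gene, at least 3 lists, no WT regions, other scalings of the fold, a replicate block and leaving out each library. The moved window and the log odds were added after seeing the data.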

Additional observations from a re-analysis of the deposited data

Results flagged for a closer look

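The gap between the share of members called and the share of distal regions with an HRE core alone called had opposite signs in tagged and WT libraries. It was below 0 in 15 of 15 tagged libraries (-14.9 to -6.36 points) and above 0 in 3 of 3 WT libraries (0.28 to 1.80 points). The means differed by -12.0 points. No test of this difference is given, since both classes were chosen by their calls in tagged lists. Distal regions with neither motif had shares close to those of the members, for example 9.07%, 31.3% and 21.0% in KIN against 8.36%, 28.5% and 21.6%. The WT values rest on 7, 227 and 54 members called in replicates 1, 2 and 3.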

How the results depend on the processing

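The difference in gap between tagged and WT libraries kept its sign under all 11 alternatives and without any single library (-12.3 to -11.6 points). The other comparisons had no adjusted p under 0.05, and their signs and raw p were less stable. Below, share is the percent of members called, gap the difference to regions with an HRE core alone, own share the percent of a list's own distal peaks, and strength the log2 difference of median folds. The cause of these changes was not tested.

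With lists of equal length the share differed by 1.33 by IDR and -0.764 by DBD, the gap by 0.430 by IDR, -1.39 by DBD and 0.545 for KIN against exogenous lines, the own share by 0.111 by IDR, 0.371 for the interaction, -1.87 for tagged against WT and -0.244 for KIN, and the strength by 0.16 for KIN. At −log10 q of at least 5 the gap for KIN was 0.578, the own share -1.24 by DBD and -4.74 for tagged against WT, and the strength for KIN 0.0865. At the lowest depth the gap for KIN was 0.251, and without WT regions 0.164. With a 50-bp window the gap was 2.19 by IDR and -0.559 for the interaction, and the strength 0.20 by IDR, -0.0212 by DBD, -0.0556 for the interaction and 0.0565 for KIN. With 1 TSS per gene the strength was -0.0222 by IDR and -0.0272 by DBD, and with at least 3 lists the gap by IDR was 2.14.

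With the moved window the gap was 3.05 by IDR, -2.73 by DBD and 1.08 for KIN, the own share for tagged against WT -0.0603, and the strength -0.17 by IDR and 0.0375 for KIN. On the log2 odds scale the gap was 0.0673 by IDR and -0.0837 for the interaction, and with the moved window as well 0.0566 by IDR, -0.35 by DBD and -0.22 for the interaction.

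The count of members by Fisher's exact test for DBD was 10 with lists of equal length and 2 with a 50-bp window, against 5. The count by limma for IDR was 1 without centring, 0 with pileup over background and 1 with the moved window, against 2. For DBD it was 1 with quantile normalization, 1 without centring, 0 with pileup over background and 4 with the moved window, against 2. With pileup over background 4 members by IDR and 9 by DBD had an unadjusted limma p under 0.05.

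Same-numbered replicates of the 4 exogenous lines were not treated as paired, since the labels give no shared batch or day and the correlations of their deviations ranged from 0.028 to 0.201. Each of the 12 libraries correlated best with its own number, and replicate 2 had the longest list in every line. These are hints of pairing in the data that the labels do not state. The main p-values take no account of such pairing. With a replicate block the share by IDR differed by -13.7 (exact permutation p = 0.03125, the smallest it can give) and the gap by DBD by -2.86 (exact permutation p = 0.0625). limma with the replicate block called 3 members by IDR, among them the CMIP site (adjusted p = 0.03345), and 2 by DBD, and the block moved no other permutation result across 0.05.

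Leaving out each library gave ranges of -21.1 to -9.73 for the share by IDR, with the lowest (exact permutation p = 0.025) without HIF-2α replicate 2, and -14.4 to -3.06 by DBD. The gap ranged from 1.65 to 2.71 by IDR, from -3.32 to -2.26 by DBD, from 0.760 to 2.59 for the interaction and from -0.435 to 0.338 for KIN. The unadjusted exact permutation p of the gap by IDR, 0.03 with all libraries, rose above 0.05 without HIF-2α replicate 1 or 2, HIF-2α/1α replicate 2 or 3, or HIF-1α replicate 2 (at most 0.08). For KIN the sign turned without KIN replicate 2, HIF-2α replicate 2, HIF-1α replicate 1 or any 1 HIF-1α/2α replicate. The own share ranged from -1.11 to -0.322 by IDR, from -1.35 to -0.557 by DBD, from -1.34 to 0.247 for the interaction, from -1.90 (without WT replicate 1) to 4.59 (without WT replicate 3) for tagged against WT, and from -2.85 to -1.81 for KIN. The strength ranged from 0.07 to 0.17 by IDR, from -0.00781 to 0.0926 by DBD, from -0.00929 to 0.19 for the interaction and from -0.0689 to 0.0246 for KIN. Fisher counts ranged from 10 to 27 members by IDR and from 6 to 17 by DBD, in tests of 5 against 6 libraries. limma counts ranged from 2 to 3 by IDR and from 1 to 2 by DBD, where the ECE1 site passed in 3 of 12 fits, those without HIF-2α replicate 2, HIF-2α/1α replicate 3 or HIF-1α replicate 2. Over all 2720 regions limma called 61 by IDR, with 102 under the replicate block, 4 without centring, 2 with pileup over background and 29 to 71 without 1 library. By DBD it called 82, with 129, 17, 2 and 53 to 90 in the same order.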
